A study of Mus musculus with 9 samples.

Results

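Axon guidance ligands and receptors were examined in αTC1 cells, a glucagon-producing line derived from mouse pancreatic alpha cells. RNA-seq libraries came from αTC1 cells after 7 days with 4 µM EPZ011989 (n = 4) and from αTC1 cells after 7 days with the solvent DMSO (n = 5). This compound blocks EZH2, the enzyme of Polycomb repressive complex PRC2 that places methyl groups on histone H3 at silent genes. All cells were of this 1 line and grew in low-glucose medium. The labels call the libraries biological replicates without saying whether these were separate cultures, and p-values here reflect only how much these libraries vary, which may be technical. Genes were chosen by symbol alone, as Eph receptors, ephrins, semaphorins of classes 3 to 7, plexins, neuropilins, Slits, Robos, netrins and UNC5 receptors. This gave 69 of the 33212 rows of the count table. They carry 68 symbols, since Efna5 stands on 2 rows with different gene identifiers. Exons of 17 of them overlap another gene (Epha10, Ephb1, Ephb4, Efna3, Sema4c, Plxna1, Plxnb1, Unc5a and Unc5c among the genes called below), and without known strand use reads of such pairs cannot be told apart.

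These families steer growing axons and migrating cells by attraction and repulsion. Eph receptors are tyrosine kinases that bind ephrins on the surface of neighbouring cells, and the ephrin can signal back into its own cell. Semaphorins act through plexins, and most secreted class 3 semaphorins need a neuropilin as co-receptor. Slits bind Robo receptors, and netrins bind DCC, neogenin and UNC5 receptors. In islets, contact between EphA receptors and ephrin-A ligands is known to modulate hormone secretion, and Robo signalling in mouse is known to keep islet cell types in their places.

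Library depth was 60274140 to 74651782 counts. A fragment adds about 4 counts, so 3 fragments (12 counts) corresponded to 0.158 to 0.203 CPM (counts scaled to a common library size) per library, and values at or below this level rest on 3 fragments or fewer. Treatment divided the libraries along the first principal component (58.0% of the variance), and on the second the EPZ011989 replicates 2 and 4 lay at opposite ends. All 8 alpha cell markers had counts, with a summed level of 19154 to 26112 CPM with EPZ011989 and 23111 to 25492 CPM in DMSO, and 2 rose and 0 fell. Most of this sum was Gcg, Pcsk2 and Ttr. The marker Gc was near the floor, at 0.250 CPM with EPZ011989 and 0.201 CPM in DMSO on average, with no counts in DMSO replicates 2 and 4. Gcg, which encodes glucagon, averaged 18633 CPM with EPZ011989 and 19280 CPM in DMSO, and Ezh2 209 and 199 CPM, and neither was called (adjusted p = 0.778 and 0.407, edgeR). Of 9 fibroblast and stellate markers 4 rose, and their summed level was 30.6 to 41.8 CPM with EPZ011989 and 7.31 to 10.01 CPM in DMSO, most of it Pdgfra. Among these, Acta2, Col3a1, Dcn, Lum and Thy1 were at 0 in every DMSO library. With EPZ011989 Thy1 averaged 3.28 CPM and was called, while Acta2, Col3a1, Dcn and Lum averaged 0.00989 to 0.162 CPM and were not tested. Endothelial markers (7) summed to 2.02 to 3.41 CPM with EPZ011989 and 0.374 to 1.16 CPM in DMSO, with 2 higher. Leukocyte markers (5 in the table) summed to 4.19 to 5.75 and 0.983 to 1.89 CPM in the same order, with 1 higher. Schwann cell and neural crest markers (6) summed to 6.60 to 7.25 CPM with EPZ011989 and 5.74 to 7.28 CPM in DMSO, with 0 called, Foxd3 at 0 in all libraries and Sox10 at 0 in DMSO. Neuronal markers (8), led by the neurofilament genes, summed to 1918 to 2141 CPM with EPZ011989 and 2310 to 2499 CPM in DMSO, with 3 higher and 1 lower. The 3 higher were Gap43 (means of 30.9 CPM with EPZ011989 and 8.19 CPM in DMSO), Stmn2 (5.12 and 0.0225) and Rbfox3 (0.663 and 0.0371). The 1 lower was the abundant Nefm (1222 and 1493 CPM), so the sum does not show these rises. Ductal markers (6) summed to 26.9 to 30.3 CPM with EPZ011989 and 16.9 to 20.7 CPM in DMSO, with 1 higher, 1 lower, Cftr at 0 throughout and Krt19 at 0 in DMSO. The part of these marker changes in the results below was not tested.

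The single comparison of the series asks how EZH2 inhibition alters gene expression in αTC1 cells. Of the 69 rows, 56 passed the filter on low counts and 13 did not. EPZ011989 raised 33 of the 56 and lowered 2 (adjusted p under 0.05, edgeR), while of all 14754 tested genes 16.2% were higher and 7.96% lower. Rises of at least 2-fold numbered 23, against 8.69% of all tested genes, and falls of at least 2-fold 0, against 0.291%. For 34 of the 56 the lowest EPZ011989 library exceeded the highest DMSO library (16.1% of all tested genes), and for 2 the groups were apart in the lower direction (8.77%). Over all genes 67.0% of calls were higher, and 77.9% with upper-quartile scaling, under which 34 members rose and 2 fell. In bulk RNA, more expressing cells and more RNA per cell cannot be told apart.

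A low gene can pass the filter through its EPZ011989 libraries, so the share among tested rows is not the share of all members. Of the 56, 12 reached the filter minimum in fewer than 4 DMSO libraries. Among those 12, Epha5 and Robo3 reached it in 3 DMSO libraries and 1 EPZ011989 library. The 5 of those 12 that rose were Epha4, Epha8, Ephb4, Efna3 and Sema5b. Each of the 5 reached it in all 4 EPZ011989 libraries and would not have been tested on its DMSO libraries alone. Their rises are thus not independent of the filter. The 37 members with a mean of at least 1 CPM over all libraries all passed, and of these 25 rose and 2 fell, against 15.2% and 9.62% of all genes at that level. Of the 32 members with a mean under 1 CPM 19 passed the filter, and 8 of these rose and 0 fell, where 20.8% of all such genes were higher and 0.554% lower. Among members with a mean of 1 to 10 CPM 12 of 17 rose and 0 fell, where 33.4% of all such genes were higher and 3.41% lower. Among those at 10 CPM or more 13 of 20 rose and 2 fell, where 9.87% of all such genes were higher and 11.4% lower. These levels include the EPZ011989 libraries, so a gene can enter a class through its rise. By DMSO mean alone, 10 of 16 members at 10 CPM or more rose and 2 fell. At a DMSO mean of 1 to 10 CPM 12 of 16 rose, and under 1 CPM 11 of 24 tested, with 0 falls in either. Shares of all genes by DMSO mean were not computed. The median log2 fold change was 1.14 over the tested members and 0.03 over all tested genes. Among tested ligands 18 of 32 rose and 1 fell, and among tested receptors 15 of 24 rose and 1 fell.

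**Figure D1:**
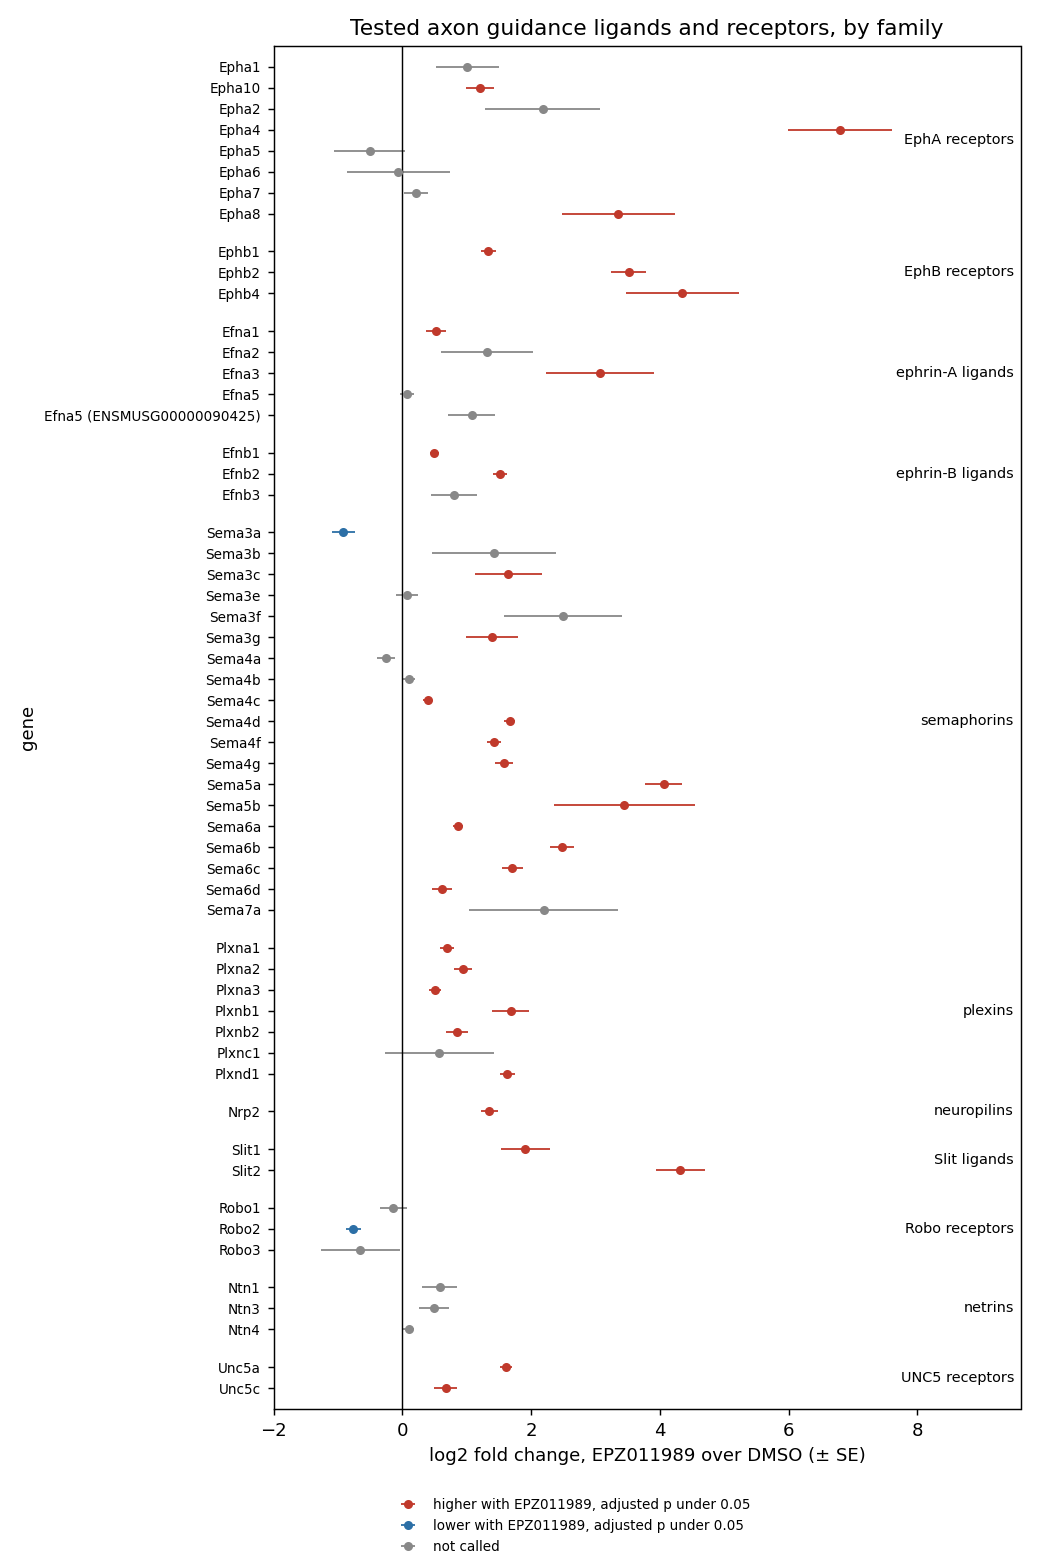
Log2 fold change of EPZ011989 over DMSO (x axis, bars ± SE) for the 56 tested axon guidance genes (y axis), grouped by family. Of these, 33 were higher (red), 2 lower (blue) and 21 not called (grey), and the 2 lower genes are Sema3a and Robo2.

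EphB receptors, the Eph class that binds transmembrane ephrin-B ligands, rose in all 3 tested cases, while Ephb3 and Ephb6 did not pass the filter. Ephb4 passed it only with its EPZ011989 libraries. Ephb2 (chromosome 4, 136647539 to 136835988, GRCm38) was at 27.5, 20.4, 25.4 and 26.6 CPM with EPZ011989, against 2.63, 0.884, 3.02, 2.30 and 2.06 CPM in DMSO. Every treated library was thus several times above the highest DMSO library. The log2 fold change was 3.52 ± 0.27 (SE, adjusted p = 6.84e-06, edgeR), or 11.4-fold. Ephb1 was at 22.1, 17.8, 19.1 and 20.4 CPM with EPZ011989, against 8.5, 6.61, 8.36, 8.80 and 6.93 CPM in DMSO. The groups stood well apart, with a log2 fold change of 1.34 ± 0.11 (adjusted p = 1.24e-05, edgeR). Per kb of exon, Ephb1 was the higher of the pair in both groups, at 2.83 CPM per kb with EPZ011989 and 1.12 in DMSO, against 1.98 and 0.173 for Ephb2. Here and below, exon length joins all annotated exons of a gene (7002 bases for Ephb1, 12608 for Ephb2), not those of the transcripts expressed. By CPM alone Ephb2 was the higher with EPZ011989, at a mean of 25.0 against 19.8, so this order depends on the annotation.

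Ephb4, known as the receptor of ephrin-B2 in vessel formation, was almost undetected in DMSO. Its level was 1.72, 1.14, 1.44 and 1.36 CPM with EPZ011989, against 0.122, 0, 0.208, 0 and 0 CPM in DMSO. All treated libraries lay above all DMSO libraries, 3 of which had no count. The fitted log2 fold change of 4.35 ± 0.88 (adjusted p = 0.00413, edgeR) rests on these few DMSO counts and was 5.36 without DMSO replicate 3. Ephb3 had counts in 2 EPZ011989 libraries and in 0 DMSO libraries, and Ephb6 was at 0 in all 9.

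EphA receptors, which bind mainly ephrin-A ligands, rose in 3 of 8 tested cases and fell in 0. Epha4 and Epha8, among those that rose, passed the filter only with their EPZ011989 libraries. Epha4, which binds ephrins of both classes and in mouse alpha cells is known to restrain glucagon secretion, was at 1.25, 2.96, 1.89 and 1.09 CPM with EPZ011989, against 0.0677, 0, 0, 0 and 0 CPM in DMSO. The only DMSO count was about 1 fragment, in replicate 1. On summed fragments the ratio was 153, with a 95% exact interval of 27 to 6094 for counting error. The fitted log2 fold change was 6.80 ± 0.81 (adjusted p = 1.41e-04, edgeR) and 9.97 without DMSO replicate 1, where all DMSO libraries are at 0 and the value depends on the prior count. Epha10, whose kinase domain is thought to be inactive, was at 4.23, 5.09, 2.82 and 4.41 CPM with EPZ011989, against 2.25, 1.22, 2.03, 1.81 and 1.61 CPM in DMSO. The groups did not overlap, and the log2 fold change was 1.21 ± 0.22 (adjusted p = 0.00206, edgeR).

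Epha8 rose to 0.914 ± 0.434 CPM with EPZ011989 (SD, n = 4), against 0.0882 ± 0.0921 CPM in DMSO (n = 5; adjusted p = 0.0167, edgeR). Without EPZ011989 replicate 3 it did not pass (adjusted p = 0.0528), and without DMSO replicate 3 its log2 fold change was 3.95 in place of 3.35. Epha8 lies 93430 bp from Ephb2 on chromosome 4, with the 3 C1q subunit genes between them, and both of these neighbouring Eph genes rose. Epha7 was the most abundant EphA gene, at 11.3 ± 3.7 CPM with EPZ011989 and 9.79 ± 0.59 CPM in DMSO, and did not pass (adjusted p = 0.473, edgeR). Its treated libraries ran over 7.59 to 16.2 CPM and enclosed all DMSO values. Epha1, Epha2, Epha5 and Epha6 were at 0.110 to 0.570 CPM with EPZ011989 and 0.123 to 0.207 CPM in DMSO on average, and none passed. Epha2 had groups that did not overlap. It missed the threshold with edgeR (adjusted p = 0.108) and passed with limma-voom (0.0210), but it passed the filter only with its EPZ011989 libraries. Exons of Epha1 overlap those of Zyx, which was at 103 CPM with EPZ011989 and 84.4 CPM in DMSO, so its own level is uncertain, and Epha3 did not pass the filter.

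Ephrin-B genes, which encode the transmembrane ligands, were at 3 very different levels. Efnb1 (chromosome X, 99136130 to 99148991) had the highest mean level of all members, at 206 ± 15 CPM with EPZ011989 and 146 ± 5 CPM in DMSO. It rose by 0.50 ± 0.07 on the log2 scale (adjusted p = 2.63e-04, edgeR), with treated libraries at 191 to 220 CPM and DMSO libraries at 140 to 153 CPM. Efnb2 was at 14.6, 15.2, 11.9 and 11.9 CPM with EPZ011989, against 5.13, 4.79, 4.43, 4.56 and 4.46 CPM in DMSO. The groups stood far apart relative to their spread, with a log2 fold change of 1.52 ± 0.11 (adjusted p = 4.55e-06, edgeR). Efnb3 was at 1.66 ± 0.25 CPM with EPZ011989 and 0.944 ± 0.456 CPM in DMSO and did not pass (adjusted p = 0.130), though it did without DMSO replicate 5 (adjusted p = 0.0451). EphB receptors and the 2 more abundant ephrin-B ligands were thus higher in the same libraries.

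Ephrin-A genes encode ligands tethered to the membrane by a lipid anchor. Efna3 was at 1.14, 1.07, 1.57 and 1.57 CPM with EPZ011989, against 0.311, 0.324, 0, 0.152 and 0 CPM in DMSO. All treated libraries were higher, but the call (log2 fold change 3.07 ± 0.84, adjusted p = 0.0213, edgeR) was lost without EPZ011989 replicate 3 (adjusted p = 0.0600). Efna1 was at 3.30 ± 0.20 CPM with EPZ011989 and 2.30 ± 0.32 CPM in DMSO (log2 fold change 0.52 ± 0.15, adjusted p = 0.0256, edgeR). That small rise missed the threshold, at adjusted p = 0.0523 to 0.0683, in fits without DMSO replicate 1, 3 or 5 or without EPZ011989 replicate 1, 3 or 4. Efna1, Efna3 and Efna4 lie side by side on chromosome 3, 89271733 to 89338028, and Efna4 had counts in only 1 library of each group. Efna5, the most abundant ephrin-A gene, was at 12 ± 1.2 CPM with EPZ011989 and 11.4 ± 1.3 CPM in DMSO (adjusted p = 0.716). Its other row (ENSMUSG00000090425) was at 0.960 ± 0.266 CPM with EPZ011989 and 0.453 ± 0.167 CPM in DMSO. This row missed the threshold (adjusted p = 0.0525) and passed without DMSO replicate 1 (0.0385) or EPZ011989 replicate 2 (0.0433). Efna2 had means of 0.706 and 0.283 CPM in the same order, with no overlap between groups, but did not pass (adjusted p = 0.221).

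**Figure D2:**
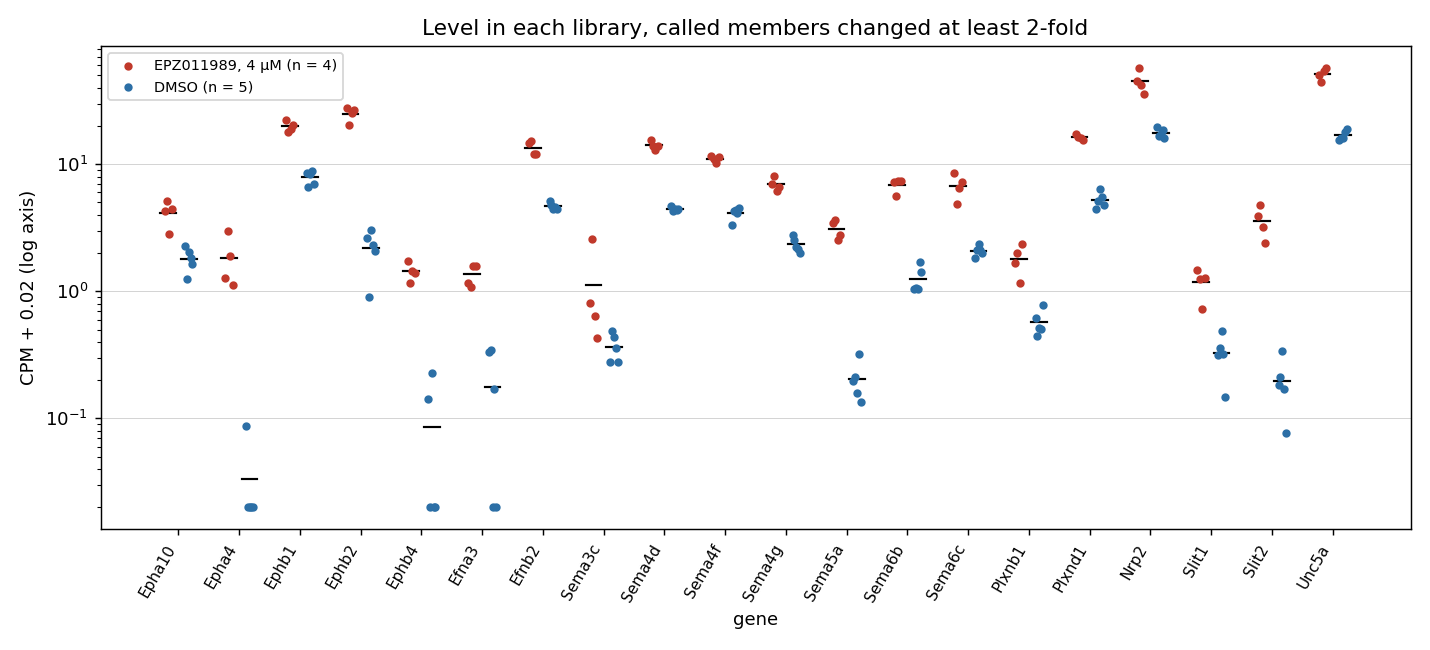
Level in each library (y axis, CPM + 0.02 on a log axis) of the 20 called axon guidance genes changed at least 2-fold with a mean of at least 1 CPM in a group (x axis). Points are libraries (red EPZ011989, n = 4; blue DMSO, n = 5) and bars are group means, and for each of the 20 genes except Sema3c all EPZ011989 libraries lie above all DMSO libraries.

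Semaphorins, the largest family with 20 genes, rose in 12 of 19 tested cases and fell in 1. The fall was in Sema3a (chromosome 5, 13125414 to 13602565), a secreted repellent of axons that signals through neuropilins and A plexins. Sema3a was at 25.6, 40.5, 26.2 and 19.0 CPM with EPZ011989, against 55.4, 50.1, 54.0, 52.6 and 50.3 CPM in DMSO. DMSO libraries were close together and treated libraries were all lower but spread more widely. The log2 fold change was -0.92 ± 0.18 (adjusted p = 0.00296, edgeR), or 0.53 times the DMSO level, and the call held in every alternative fit. Its size varied over those fits, with a log2 fold change of -1.16 to -0.80. With 1 library left out, 0 to 1 members fell at least 2-fold. Sema3a was the most abundant semaphorin in DMSO by CPM, and Sema4c the most abundant with EPZ011989. Per kb of exon Sema4c was higher in both groups, at 10.5 and 7.98 CPM per kb, against 2.00 and 3.78 for Sema3a.

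Of the other secreted class 3 genes only Sema3e was as high as several CPM, at 8.95 ± 2.29 CPM with EPZ011989 and 8.48 ± 1.24 CPM in DMSO (adjusted p = 0.808, edgeR). Sema3c, a class 3 ligand that can attract axons, was at 0.782, 2.56, 0.620 and 0.407 CPM with EPZ011989, against 0.257, 0.471, 0.415, 0.338 and 0.257 CPM in DMSO. The groups overlapped, and replicate 2 was the only treated library above 1 CPM. The call (log2 fold change 1.65 ± 0.52, adjusted p = 0.0422) rested on that library, with a log2 fold change of 0.78 and adjusted p = 0.193 without it. It was also lost without EPZ011989 replicate 1 or any 1 DMSO replicate (adjusted p = 0.0602 to 0.0885). Sema3g rose to 0.865 ± 0.281 CPM with EPZ011989, against 0.329 ± 0.161 CPM in DMSO (adjusted p = 0.0285). This call was lost without DMSO replicate 1, 2, 3 or 5 or EPZ011989 replicate 2 or 4 (adjusted p = 0.0561 to 0.0703). Sema3b and Sema3f stayed under 0.5 CPM on average in both groups and were not called, and Sema3d did not pass the filter.

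Class 4 semaphorins are membrane proteins, several of which signal through B plexins. Sema4d, the ligand of plexin-B1, was at 15.5, 13.8, 12.9 and 13.9 CPM with EPZ011989, against 4.63, 4.23, 4.42, 4.37 and 4.44 CPM in DMSO. Its DMSO libraries lay close together, and its rise had the smallest p of all members (log2 fold change 1.67 ± 0.09, adjusted p = 8.01e-07, edgeR). Sema4f was at 11.5, 10.9, 10.2 and 11.4 CPM with EPZ011989, against 3.27, 4.23, 4.37, 4.14 and 4.50 CPM in DMSO. Sema4g was at 6.93, 8.04, 6.19 and 6.54 CPM with EPZ011989, against 2.77, 2.50, 2.20, 2.13 and 1.97 CPM in DMSO. These 3 genes moved by similar factors and none had overlapping groups. Sema4f changed by 1.42 ± 0.11 and Sema4g by 1.58 ± 0.14 on the log2 scale (adjusted p = 8.54e-06 and 1.75e-05, edgeR). Sema4c rose less, to 48.1 ± 3.1 CPM with EPZ011989, against 36.7 ± 1.9 CPM in DMSO (adjusted p = 0.00216). Sema4a, at 3.64 ± 0.46 and 4.34 ± 0.50 CPM, and Sema4b, at 34.5 ± 3.7 and 32.2 ± 2.5 CPM in the same order, did not pass.

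Both class 5 genes, whose proteins carry thrombospondin repeats, rose from near the detection floor. Sema5b passed the filter only with its EPZ011989 libraries. Sema5a was at 3.41, 3.60, 2.52 and 2.76 CPM with EPZ011989, against 0.176, 0.192, 0.138, 0.304 and 0.114 CPM in DMSO. The lowest treated library was several times above the highest DMSO library. The log2 fold change was 4.06 ± 0.29 (adjusted p = 4.16e-06, edgeR), or 16.6-fold. Sema5b was at 0.434 ± 0.171 CPM with EPZ011989 and 0.0383 ± 0.0857 CPM in DMSO, where 1 library had counts. Its ratio on summed fragments was 12.5, with a 95% exact interval of 3.90 to 63.6 for counting error. The call (adjusted p = 0.0418) was lost without DMSO replicate 1, 3, 4 or 5 or EPZ011989 replicate 1, 3 or 4 (adjusted p = 0.0658 to 0.121). It was 0.00187 without DMSO replicate 2, the library with counts, and the fitted log2 fold change was then 7.95 in place of 3.45.

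Class 6 semaphorins, transmembrane ligands of A plexins, rose in 4 of 4 cases. Sema6b was at 7.16, 5.59, 7.37 and 7.34 CPM with EPZ011989, against 1.03, 1.05, 1.02, 1.67 and 1.39 CPM in DMSO. The log2 fold change of 2.48 ± 0.18 (adjusted p = 5.21e-06, edgeR) was the largest of the class. Sema6c was at 8.47, 4.80, 6.53 and 7.21 CPM with EPZ011989, against 1.81, 2.09, 2.34, 2.09 and 1.97 CPM in DMSO. The groups did not overlap although treated libraries were uneven (log2 fold change 1.71 ± 0.17, adjusted p = 3.59e-05). Sema6a rose to 30.4 ± 2.3 CPM with EPZ011989, against 16.7 ± 0.9 CPM in DMSO (adjusted p = 2.35e-05). Sema6d rose to 22.8 ± 5.0 CPM with EPZ011989, against 14.9 ± 2.3 CPM in DMSO (adjusted p = 0.0131), with 1 treated library below the highest DMSO library. The Sema6d call was lost with the replicate number as a block (adjusted p = 0.0715, edgeR). Sema7a, the lipid-anchored class 7 gene, averaged 0.154 CPM with EPZ011989 and 0.0324 CPM in DMSO and was not called.

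Plexins, the receptors of semaphorins, rose in 6 of 7 tested cases. Plxnd1, known as a receptor of Sema3e, was at 17.2, 16.3, 16.1 and 15.4 CPM with EPZ011989, against 4.45, 5.16, 6.39, 5.54 and 4.73 CPM in DMSO. The groups were far apart (log2 fold change 1.63 ± 0.11, adjusted p = 3.75e-06, edgeR), while Sema3e itself was not called. Plxnb1, the receptor of Sema4d, was at 1.64, 2.00, 1.13 and 2.34 CPM with EPZ011989, against 0.595, 0.427, 0.498, 0.490 and 0.757 CPM in DMSO. It rose with a log2 fold change of 1.68 ± 0.28 (adjusted p = 0.00133), close to the 1.67 of its ligand gene. Plxnb2 rose to 5.58 ± 0.51 CPM with EPZ011989, against 3.09 ± 0.67 CPM in DMSO (adjusted p = 0.00370).

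A plexins, which transmit class 3 signals with neuropilins and class 6 signals directly, rose less than 2-fold from higher levels. Plxna1 rose to 53.4 ± 8.1 CPM with EPZ011989, against 33.0 ± 3.3 CPM in DMSO (adjusted p = 0.00119, edgeR). Plxna2 rose to 37.7 ± 9.0 CPM with EPZ011989, against 19.6 ± 1.4 CPM in DMSO (adjusted p = 5.27e-04). Plxna3 rose to 19.1 ± 2.1 CPM with EPZ011989, against 13.4 ± 0.9 CPM in DMSO (adjusted p = 0.00245). In each of these 3 genes every treated library lay above every DMSO library. Plxnc1 averaged 0.176 and 0.118 CPM in the same order and was not called, and Plxna4 and Plxnb3 did not pass the filter.

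Neuropilins differed completely in level. Nrp2, a co-receptor for secreted semaphorins such as Sema3f and for VEGF, was at 45.0, 57.2, 42.2 and 35.5 CPM with EPZ011989, against 19.5, 16.5, 17.4, 18.7 and 16.0 CPM in DMSO. All treated libraries were above all DMSO libraries (log2 fold change 1.35 ± 0.13, adjusted p = 2.62e-05, edgeR). Nrp1, the co-receptor that binds Sema3a with high affinity, had counts in 2 EPZ011989 libraries and 1 DMSO library, at no more than 0.0985 CPM, and did not pass the filter. Thus the Sema3a transcript was lower with EPZ011989 while Nrp2 and 3 A plexin genes were higher, and Nrp1 was close to undetected in both groups.

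**Figure D3:**
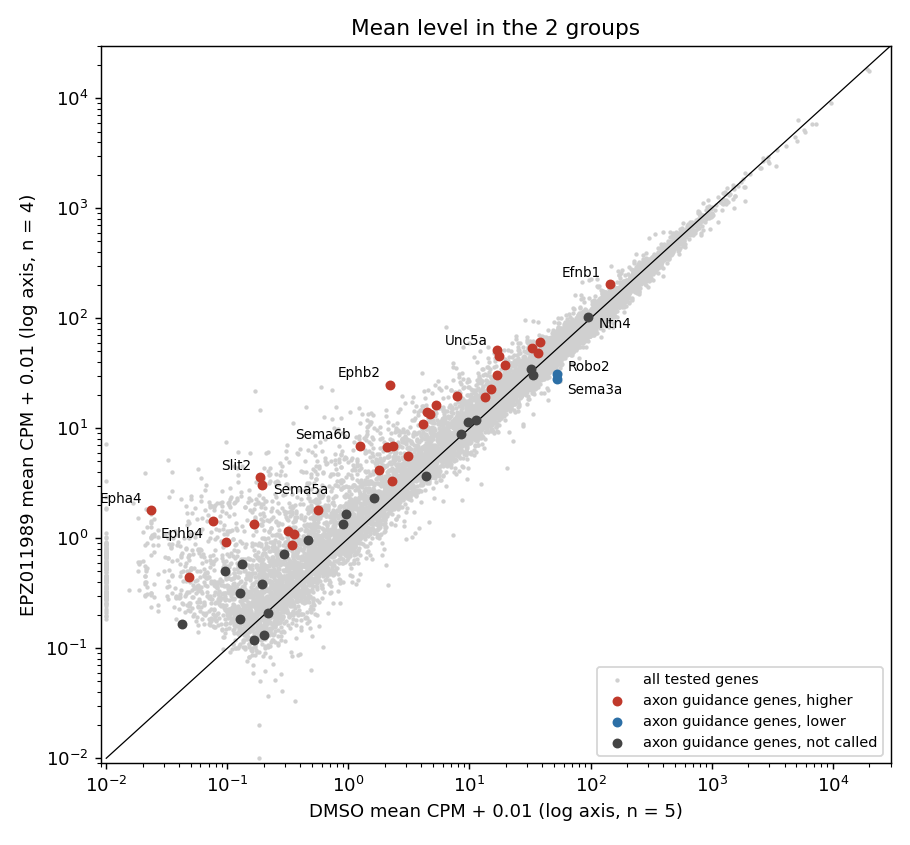
Mean level with EPZ011989 (y axis, n = 4) against the mean level in DMSO (x axis, n = 5), both as CPM + 0.01 on log axes, for all 14754 tested genes (light grey) and the 56 tested axon guidance genes (33 higher in red, 2 lower in blue, 21 not called in dark grey). The line marks equal levels, and red points reach from under 0.1 CPM in DMSO to Efnb1 at 146 CPM.

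In the Slit-Robo pathway both tested ligand genes rose and 1 receptor gene fell. Slit2 (chromosome 5, 47983138 to 48307733), a secreted repellent, was at 3.91, 4.77, 3.19 and 2.39 CPM with EPZ011989, against 0.162, 0.192, 0.318, 0.152 and 0.0572 CPM in DMSO. The log2 fold change was 4.32 ± 0.38 (adjusted p = 1.80e-05, edgeR), from a DMSO level near the floor of 3 fragments. Slit1 was at 1.44, 1.24, 0.712 and 1.26 CPM with EPZ011989, against 0.298, 0.339, 0.471, 0.304 and 0.129 CPM in DMSO. Its groups did not overlap (log2 fold change 1.91 ± 0.39, adjusted p = 0.00409). Slit3 had counts in 3 EPZ011989 libraries and 0 DMSO libraries and did not pass the filter.

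Robo receptors rose in 0 of 3 tested cases and fell in 1. Robo2 (chromosome 16, 73891839 to 74411825) was at 31.3, 36.6, 31.2 and 24.8 CPM with EPZ011989, against 59.3, 48.7, 56.5, 52.6 and 45.8 CPM in DMSO. Every treated library was below every DMSO library, with a log2 fold change of -0.76 ± 0.12 (adjusted p = 7.76e-04, edgeR), or 0.589 times the DMSO level. This call held in every alternative fit. Robo1 was at 30.5 ± 10.2 CPM with EPZ011989 and 33.6 ± 6.3 CPM in DMSO and did not pass (adjusted p = 0.706), with treated libraries over 21.2 to 44.5 CPM. Per kb of exon, Robo2 and Robo1 were at 1.82 and 1.85 CPM per kb with EPZ011989, and at 3.10 and 2.03 in DMSO. Robo3 averaged 0.121 and 0.192 CPM in the same order and was not called, and Robo4, a receptor of endothelial cells, did not pass the filter.

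Netrins were not called in any of 3 tested cases. Ntn4, a laminin-related netrin of basement membranes, was among the most abundant members, at 102 ± 11 CPM with EPZ011989 and 95.4 ± 4.2 CPM in DMSO (log2 fold change 0.10 ± 0.08, adjusted p = 0.438, edgeR). Ntn3 was at 2.29 ± 0.60 CPM with EPZ011989 and 1.63 ± 0.37 CPM in DMSO (adjusted p = 0.166). Ntn1, the classic midline attractant, was at 1.33 ± 0.19 CPM with EPZ011989 and 0.892 ± 0.279 CPM in DMSO (adjusted p = 0.147). Ntn5 had counts in all 4 EPZ011989 libraries, at 0.0982 to 0.267 CPM, and in 0 DMSO libraries, and did not pass the filter. Of the 3 tested netrins, 0 had an unadjusted p under 0.05 with edgeR, and DESeq2 and limma-voom also called 0. With no filter on low counts 1 netrin, Ntn5, was called higher.

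UNC5 receptors, which mediate repulsion by netrins and act as dependence receptors, rose in both tested cases. Unc5a (chromosome 13, 54949411 to 55006018) was at 49.9, 44.3, 54.2 and 56.6 CPM with EPZ011989, against 15.4, 16.1, 16.0, 17.7 and 18.9 CPM in DMSO. The rise of 3.04-fold (log2 fold change 1.61 ± 0.09, adjusted p = 1.21e-06, edgeR) was larger than any spread within a group. Unc5c rose to 61.5 ± 17.2 CPM with EPZ011989, against 38.5 ± 5.9 CPM in DMSO (adjusted p = 0.0167), with 1 treated library below the highest DMSO library. This call was lost with the replicate number as a block (adjusted p = 0.101, edgeR). Per kb of exon the Unc5a level was 12.3 CPM per kb with EPZ011989 and 4.04 in DMSO, above the 3.21 and 2.01 of Unc5c. Unc5b had counts in 3 EPZ011989 libraries and 0 DMSO libraries, and Unc5d was at 0 in all 9.

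The other genes of guidance signalling came from a list of co-receptors and intracellular partners. The list held 60 symbols on 63 rows, of which 56 passed the filter, and 21 (37.5%) rose and 2 (3.57%) fell, with a median log2 fold change of 0.24. Over all tested genes 16.2% were higher and 7.96% lower, with a median of 0.03. The list was chosen with earlier results of these data known, and expression level was not matched, so these shares are no independent comparison. The rises with the smallest p were in Srgap3, a GTPase activator that binds Robo receptors, at 13.7 ± 1.7 CPM with EPZ011989 and 1.53 ± 0.33 CPM in DMSO, and in Chn1, which encodes a GTPase-activating protein that turns Rac off downstream of Eph receptors, at 31.6 ± 3.8 and 8.71 ± 0.87 CPM. Dpysl5 and Dpysl3, of the family that mediates the collapse response to semaphorins, followed, at 11.2 ± 1.6 and 9.97 ± 2.00 CPM with EPZ011989, against 1.24 ± 0.37 and 0.755 ± 0.280 CPM in DMSO. Fyn, a kinase used by several guidance receptors, was at 46.2 ± 4.1 CPM with EPZ011989 and 24.8 ± 1.2 CPM in DMSO (adjusted p = 1.60e-05, edgeR, the largest of these 5). The 2 falls were small. Neo1, which encodes the netrin receptor neogenin, was at 177 ± 13 CPM with EPZ011989 and 211 ± 15 CPM in DMSO (adjusted p = 0.0367), and the adaptor gene Nck1 at 33.7 ± 2.2 and 40.1 ± 0.9 CPM (adjusted p = 0.0211). The number of falls was 1 without DMSO replicate 1, 3 or 4 or EPZ011989 replicate 3 or 4, 0 without DMSO replicate 2 and 4 without EPZ011989 replicate 2. The netrin receptor gene Dcc was at 1.01 ± 0.99 and 0.309 ± 0.209 CPM in the same order and did not pass (adjusted p = 0.182).

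The spread among treated libraries had a common form in some members. Spread along the second principal component was not limited to treated libraries. EPZ011989 replicates 2 and 4 lay at 50.5 and -39.8, and DMSO replicates 1 and 5 at 26.2 and -23.3. How many members follow this order in DMSO was not computed. In 20 of the 56 tested members EPZ011989 replicate 2 was the highest and replicate 4 the lowest of the 4 treated libraries, which held for 27.2% of all tested genes. This was 17 of 25 members (68%) whose gene spans over 100 kb, against 47.7% of all tested genes over 100 kb. It was 3 of 29 shorter members (10.3%), and the share over all shorter genes was not computed. Sema3a, Robo1, Unc5c, Slit2, Epha7, Nrp2 and Sema6d, all long genes, showed it. Ephb2 and Ephb1 also span over 100 kb but were lower in replicate 2 than in replicate 4. With both replicates left out 31 members rose and 2 fell, so the counts changed little.

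**Figure D4:**
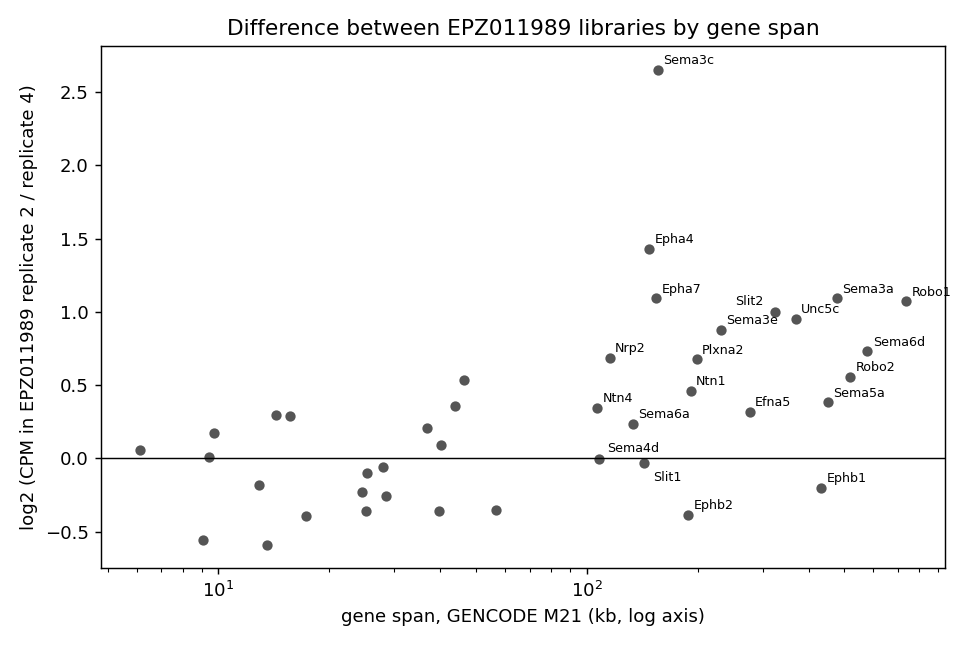
Log2 ratio of CPM in EPZ011989 replicate 2 over replicate 4 (y axis) against the span of the gene in kb (x axis, log scale) for the 41 tested axon guidance genes with a position and a mean of at least 1 CPM with EPZ011989. Of the 21 genes over 100 kb (named) 17 lie above 0, with a median of 0.68, and of the 20 shorter genes 9 do, with a median of -0.08.

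Promoters were read to see what the moved members share in sequence, since PRC2 is known to occupy CpG-rich promoters. RefSeq windows of 300 bases (250 before to 50 after the start, GRCm38.p6) were available for 59 members, taking for each gene the window with most CpG. The motif CG reads the same on both strands. At least 15 were found in the windows of 23 of 30 higher members (76.7%), 12 of 16 tested members that were not called (75%) and 1 of the 2 lower ones. The share was 72.9% over all tested genes with a window, and 37.1% over the windows of all genes. The 200 bases before the start are shown, 5′ to 3′, for the 3 members with the largest rises at 1 CPM or more and for the 2 that fell, with each CG in capitals.
Epha4: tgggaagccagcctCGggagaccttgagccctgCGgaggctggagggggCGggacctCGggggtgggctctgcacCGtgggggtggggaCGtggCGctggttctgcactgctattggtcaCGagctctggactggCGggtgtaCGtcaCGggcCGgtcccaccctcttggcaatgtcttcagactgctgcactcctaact
Ephb4: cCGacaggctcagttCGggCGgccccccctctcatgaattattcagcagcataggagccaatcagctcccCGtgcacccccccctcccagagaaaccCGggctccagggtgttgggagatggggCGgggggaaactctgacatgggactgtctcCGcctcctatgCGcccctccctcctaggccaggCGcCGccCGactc
Slit2: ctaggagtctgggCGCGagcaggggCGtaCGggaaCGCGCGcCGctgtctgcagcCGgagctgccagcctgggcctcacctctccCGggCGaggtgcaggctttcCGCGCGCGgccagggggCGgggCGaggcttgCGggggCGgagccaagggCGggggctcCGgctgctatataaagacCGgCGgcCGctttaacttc
Sema3a: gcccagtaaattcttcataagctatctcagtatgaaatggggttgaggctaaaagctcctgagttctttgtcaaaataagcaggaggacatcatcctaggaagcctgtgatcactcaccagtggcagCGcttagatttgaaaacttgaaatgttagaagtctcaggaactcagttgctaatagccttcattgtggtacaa
Robo2: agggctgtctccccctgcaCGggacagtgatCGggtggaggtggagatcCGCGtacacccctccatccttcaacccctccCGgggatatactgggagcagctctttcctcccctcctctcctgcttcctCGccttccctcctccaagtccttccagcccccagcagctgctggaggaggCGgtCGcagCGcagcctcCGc
The windows of Epha4, Ephb4 and Slit2 lie at chr1:77515089-77515288 (minus strand), chr5:137349909-137350108 (plus) and chr5:47982955-47983154 (plus). Those of Sema3a and Robo2 lie at chr5:13396584-13396783 (plus) and chr16:74411826-74412025 (minus). Slit2 had 24 CG in these 200 bases, Epha4 12, Ephb4 11 and Robo2 10, while Sema3a had 1. The Sema3a start used by RefSeq lies inside the span of the GENCODE gene, which begins upstream, and which start αTC1 cells use was not analysed here.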

How the data were processed

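αTC1 cells were profiled by RNA-seq, with 4 EPZ011989 and 5 DMSO libraries assigned by the treatment tag. Poly-A capture preceded Illumina library construction, per the labels' protocols. HISAT2, StringTie, DESeq2 and mm10 appear in the submitters' processing notes without roles or versions. The authors deposited gene counts as whole numbers (33212 rows), which were used here, beside a normalized table, which was not. Among low counts 1 was the most frequent value (3970), but 4 (3046) and 5 (2732) were more frequent than 2 (2108) and 3 (2160), so a fragment was taken to add about 4 counts. Floors and fragment intervals rest on this approximation. Whether counting used strand is not given in the sources used here.

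Genes kept by filterByExpr were fitted with edgeR 4.0.16 in R 4.3.3, with TMM scaling and treatment as the only term, by its robust quasi-likelihood test. Two-sided p-values were adjusted over 14754 genes by the Benjamini-Hochberg method, and a gene is called under 0.05. CPM uses TMM-scaled library sizes, and an SE is a log2 fold change over the root of its F value. The fit was tested on simulated data. Positions and exon lengths are from GENCODE M21 (GRCm38, the assembly of mm10), and promoters from RefSeq (GRCm38.p6). An exon length counts every base in any annotated exon of the gene, so orders per kb of exon are approximate.

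Members were taken by symbol alone, and members and lists were chosen with earlier results of these data known. Called members with a change of at least 2-fold and a group mean of at least 1 CPM are given per library, other called members by their means, and the 2 most abundant of each family in any case. Partners are named by smallest p, up to 5 a direction. As alternatives, scaling was changed (RLE, upper quartile, none), the filter was dropped or set to 1 CPM in 4 libraries, and DESeq2 1.42.0 and limma-voom (limma 3.58.1) replaced edgeR. Counts were also divided by 4, the replicate number was added as a block, and libraries were left out. Replicates differed by more than sampling noise (chi-square per degree of freedom 4.19 or more for every pair, on counts divided by 4), so each counts once. Intervals and floors cover counting error only.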

Additional observations from a re-analysis of the deposited data

Results flagged for a closer look

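In 112 groups of libraries (56 tested genes, each with EPZ011989 and DMSO), 10 held a library that stood apart from the rest of its group. The rule is meant to flag about 1 in 20 independent groups by chance. The genes share the same libraries, and a group with counts in a single library is always flagged. The 10 were therefore not read as an excess over chance. Among EPZ011989 libraries, replicate 4 was low for Sema4c (43.5 CPM, next 49.2) and Sema6a (26.9, next 31.1), replicate 2 was low for Sema6b (5.59, next 7.16), and replicate 3 was high for Robo3 (0.264, next 0.0842). Among DMSO libraries, replicate 5 was low for Plxna1 (27.3 CPM, next 33.5) and high for Ntn3 (2.27, next 1.59), and replicate 4 was high for Sema3g (0.608, next 0.325). The other 3 were single DMSO libraries with counts where the rest were at 0, namely Epha4 in replicate 1 (0.0677 CPM), Sema5b in replicate 2 (0.192) and Sema7a in replicate 2 (0.162). The last 3 rest on about 1 to 3 fragments each.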

How the results depend on the processing

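The members called higher numbered 33 (edgeR) and 25 to 36 over all alternatives, and those lower stayed at 2. Of the 35 called members 27 kept their call and direction in every alternative that gave a value (Slit1 gave none with at least 1 CPM in 4 libraries), and Epha8, Efna1, Efna3, Sema3c, Sema3g, Sema5b, Sema6d and Unc5c lost it in at least 1. With the replicate number as a block 25 members rose and 2 fell, and all genes called higher and lower numbered 1525 and 527, against 2388 and 1174. Deviations from the group means correlated at -0.0985 to 0.0302 for same-numbered libraries, and at -0.232 to 0.211 for the other pairs. The labels do not say whether equal numbers mark a shared culture or day, and these few correlations cannot decide it. Guidance partners called lower numbered 2, and 0 with the block or upper-quartile factors, 1 with library size alone and 4 with DESeq2. Upper-quartile factors gave 776 lower genes, which made 77.9% of all calls higher, against 67.0%. With 1 library left out, members higher ranged over 29 to 32, members lower were 2, partners lower ranged over 0 to 4, all genes higher over 1861 to 2939 and all genes lower over 781 to 2377. Of the members not called 5 turned sign. Epha6 (log2 fold change -0.06) was 0.53 with limma-voom, and -0.49 to 0.21 with 1 library left out. Efna5 (ENSMUSG00000048915) was -0.015 with the block and -0.013 to 0.097 with 1 library left out. Sema3e was -0.026 with the block and -0.11 to 0.18 with 1 library left out. Epha7 was -0.020 to 0.33 with 1 library left out, and Plxnc1 (0.58) was -0.062 without EPZ011989 replicates 2 and 4. The cause was not tested. Depth limits most the members with few or no DMSO counts, such as Epha4, Ephb4 and Sema5b.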
